A study of Mus musculus with 6 samples.

Results

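The proteasome subunit genes were taken as the rows of the count table whose symbol is Psma, Psmb, Psmc or Psmd followed by a number and which held at least 10 counts in each of the 6 libraries. Of 46095 rows, 39 carried such a symbol and 35 met the count minimum: 7 alpha and 7 beta subunits of the core particle, Psmb10 of the immunoproteasome, 17 subunits of the regulatory particle and 3 assembly factors. The 4 rows below the minimum were Psma8, Psmb8, Psmb9 and Psmb11. Just inside the minimum stood Psmb6, with 10 to 24 counts a library, and just outside it Psma8 and Psmb9, each with at most 6. The RNA came from brown adipocytes induced in culture from the stromal vascular fraction of brown fat, that is, from the preadipocytes and other cells left once fat cells are removed. There were 3 libraries from U-IRX3ov mice, whose genotype name gives overexpression of the homeobox gene IRX3 and whose library titles read KI, and 3 from control mice. All mice were C57BL/6 and 5 weeks old, and all cultures were induced for 8 days. IBMX (0.5 mM) and dexamethasone (1 µM) were present for the first 2 days, while rosiglitazone (1 µM), triiodothyronine (1 µM) and insulin (5 µg/mL) were present for those 2 days and the 6 that followed. The sources used here do not give the promoter that drives IRX3, the species of its sequence, or the genotype of the controls beyond that word. Nor do they state whether libraries of a group came from separate animals or cultures, so p-values measure only the spread between these libraries, which may be technical.

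The proteasome is the cell's main machine for degrading ubiquitin-tagged proteins. Its core particle is a barrel of 2 outer alpha rings and 2 inner beta rings, in which Psmb5, Psmb6 and Psmb7 carry the active sites. In leukocytes and in cells exposed to interferon gamma, Psmb8, Psmb9 and Psmb10 replace Psmb5, Psmb6 and Psmb7 to form the immunoproteasome, whose peptides feed presentation by MHC class I. The regulatory particle caps the barrel: a base of ATPases (Psmc genes) unfolds the substrate, and a lid removes its ubiquitin. In mouse brown fat the transcription factor Nfe2l1 is known to sustain proteasome gene expression during thermogenesis.

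Total counts per library ran from 20094799 to 26755870 in U-IRX3ov and from 25371093 to 26573164 in control. Irx3 itself had 163, 123 and 114 counts in the U-IRX3ov libraries, against 131, 142 and 138 in the control libraries. As CPM, counts scaled to a common library size after TMM adjustment, that was 6.16 ± 0.233 CPM in U-IRX3ov and 5.11 ± 0.321 CPM in control (SD, n = 3 each), and the log2 fold change of 0.27 ± 0.13 (SE) did not pass the test (edgeR quasi-likelihood test, adjusted p = 0.112). The sources used here do not say whether the transgene's transcripts carry this symbol in the table. Brown adipocyte markers were present: 12 of 14 were higher in U-IRX3ov and the other 2, the developmental factors Zic1 (-0.88 on the log2 scale) and Lhx8 (-0.69), named after their values were seen, were lower. The list's summed level ran from 1122 to 1217 CPM in U-IRX3ov and from 525 to 530 CPM in control. General adipocyte genes summed to 51955 to 53524 CPM in U-IRX3ov and 39471 to 40286 CPM in control.

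The promoters of 5 subunit genes are shown, picked by their fold changes or their motifs and not as a sample of the members. Psma1 had the highest called fold change of the core, Psmd8 the highest of the lid and Psmc5 the lowest of all members. Psmb3 and Psmd4 were called higher and are shown because their windows hold 2 kinds of motif. Each line gives the 250 bases before the RefSeq start on GRCm38.p6, read 5′ to 3′ on the gene's strand. Capitals mark CCAAT on either strand (the CCAAT box, bound by NF-Y) and, on either strand, GAAA followed by any 2 bases and GAAA (a core of the interferon-stimulated response element). The windows are chr7:114276117-114276366 on the minus strand for Psma1, chr11:97703184-97703433 on the plus strand for Psmb3, chr3:95042615-95042864 on the minus strand for Psmd4, chr7:29180674-29180923 on the minus strand for Psmd8 and chr11:106255935-106256184 on the plus strand for Psmc5.
Psma1: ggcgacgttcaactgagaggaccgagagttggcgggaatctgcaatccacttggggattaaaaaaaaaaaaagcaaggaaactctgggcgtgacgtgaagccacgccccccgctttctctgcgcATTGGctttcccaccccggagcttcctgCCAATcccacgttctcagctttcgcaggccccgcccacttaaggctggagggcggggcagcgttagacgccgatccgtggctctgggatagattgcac
Psmb3: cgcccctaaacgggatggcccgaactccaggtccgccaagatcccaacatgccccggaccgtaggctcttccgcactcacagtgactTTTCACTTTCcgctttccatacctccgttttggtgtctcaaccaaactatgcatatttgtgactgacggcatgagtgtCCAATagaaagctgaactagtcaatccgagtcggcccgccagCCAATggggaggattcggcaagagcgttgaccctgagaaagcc
Psmd4: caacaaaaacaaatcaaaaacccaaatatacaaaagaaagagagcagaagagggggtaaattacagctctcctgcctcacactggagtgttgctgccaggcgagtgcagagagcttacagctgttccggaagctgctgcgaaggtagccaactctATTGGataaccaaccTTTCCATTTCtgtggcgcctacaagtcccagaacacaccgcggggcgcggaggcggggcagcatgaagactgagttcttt
Psmd8: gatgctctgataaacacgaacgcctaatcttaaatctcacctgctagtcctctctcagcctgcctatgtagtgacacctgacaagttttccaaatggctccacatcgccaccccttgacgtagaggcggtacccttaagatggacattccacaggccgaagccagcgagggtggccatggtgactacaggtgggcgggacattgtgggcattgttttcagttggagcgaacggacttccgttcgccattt
Psmc5: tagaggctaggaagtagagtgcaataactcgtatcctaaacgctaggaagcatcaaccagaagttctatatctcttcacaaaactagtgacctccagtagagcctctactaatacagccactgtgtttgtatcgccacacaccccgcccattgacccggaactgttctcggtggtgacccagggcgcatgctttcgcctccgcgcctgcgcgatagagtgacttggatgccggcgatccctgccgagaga

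RefSeq promoter windows were found for 29 of the 35 members (not for Psmb7, Psmb1, Psmb2, Psmc3, Psmd3 and Psmd7). A gene with several starts was counted if any window held the motif. CCAAT was found for 11 of 29 members (37.9%), against 37.5% of the 27025 genes with a window. Among the matched members it was found for 6 of the 10 that were higher in U-IRX3ov and for 5 of the other 19. The antioxidant response element core TGACNNNGC, the kind of site that Nfe2l1 binds, was found for 5 members (17.2%), against 11.5% of all genes. These were Psmb5, Psmb6, Psmc6, Psmd12 and Psmd9, so it was found for 0 of the 10 higher members and for 5 of the other 19. The interferon-stimulated response element core was found for Psmb3, Psmd4 and Psmd9 (10.3%, against 3.46% of all genes). That was 2 of the 10 higher members and 1 of the other 19. The interferon gamma-activated site core TTCNNNGAA was found for none of the 29 members, against 8.13% of all genes. All 4 motifs were searched on both strands, and no 2 matches overlap in the windows shown.

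The proteasome subunit genes changed little between U-IRX3ov and control cells, and those that passed the test were higher in U-IRX3ov. Of 35 members, 12 rose (34.3%; edgeR quasi-likelihood test, Benjamini-Hochberg adjusted p under 0.05 over the 14757 genes tested), where 20.2% of all genes tested rose. In the same test 0 members fell, where 21.1% of all genes tested fell. Calls in either direction covered 41.3% of all genes tested. The counts of calls given for single classes, lists and markers are to be read beside the same shares. At an unadjusted p under 0.05 there was 1 lower member, Psmc5, and DESeq2 also called 0 members lower and the same 12 higher. For 16 members the lowest U-IRX3ov value in CPM exceeded the highest control value, a pattern that 24.9% of all genes tested showed. The reverse held for 1 member, against 25.9% of all genes. The changes were small. With Psmb6 left out for its low counts, 33 of 34 members had a fold between 0.8 and 1.25, whereas 35.3% of all genes tested lay outside that range. The median size of the log2 fold change was 0.06 over the 35 members and 0.21 over all genes tested. The genes tested include genes with lower counts and wider errors than most members, and neither comparison was matched for level.

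The core particle had the higher median. Its 14 members had a median log2 fold change of 0.14, with 7 higher (50%). The 17 members of the regulatory particle had one of 0.06, with 5 higher (29.4%). Over all genes tested the median was -0.00473 and 20.2% were higher. Between libraries of a group, the median log2 CPM had an SD of 0.057 for the core and 0.036 for the regulatory particle. Psmb10, the one immunoproteasome member, had a log2 fold change of 0.06. In summed CPM the 14 core genes gave 1889, 1817 and 1851 in the U-IRX3ov libraries, against 1609, 1599 and 1707 in the control libraries. The groups did not overlap and the ratio of the means was 1.13. Psma1 alone had means of 349.9 CPM in U-IRX3ov and 255 CPM in control, beside mean core sums of 1852 and 1638 CPM. The ratio was 1.16 for the alpha ring, whose mean sums of 1138 CPM in U-IRX3ov and 980 CPM in control include Psma1. For the catalytic beta subunits, where Psmb7 and Psmb5 make up nearly all of the sum, it was 1.12. For the non-catalytic beta subunits it was 1.07, and differences between these ratios were not tested. The 17 genes of the regulatory particle summed to 2965, 2963 and 2974 CPM in U-IRX3ov, against 2783, 2787 and 2878 CPM in control, a ratio of 1.05 without overlap. These ratios hold on the TMM scale, with factors of 0.973, 0.970 and 0.958 for the U-IRX3ov libraries and 1.031, 1.033 and 1.038 for control. Factors below 1 raise CPM and those above 1 lower it. Without TMM, the 35 members made up 0.484%, 0.475% and 0.473% of all counts in the U-IRX3ov libraries. In the control libraries they made up 0.465%, 0.464% and 0.488%, so these shares overlapped. Control library 3 stood above the other controls in the core and regulatory sums. It held the highest control value for 24 of the 35 members (68.6%, against 35.3% of all genes tested), and U-IRX3ov library 1 held the highest U-IRX3ov value for 19 members (54.3%, against 32.5%). Markers of other cells of the fraction moved in the same libraries. Of 15 preadipocyte and fibroblast markers 14 fell (2138 to 2273 CPM summed in U-IRX3ov, 3127 to 3324 in control), and of 10 pericyte and smooth muscle markers 7 fell and 2 rose (2950 to 3205 CPM in U-IRX3ov, 4725 to 4861 in control). Of 11 endothelial markers 6 rose and 1 fell (96.5 to 108 CPM in U-IRX3ov, 117 to 122 in control). That sum is led by Eng, the gene that fell, and without it (a choice made after its values were seen) the list summed to 67.1 to 72.4 CPM in U-IRX3ov and 43.9 to 48.7 CPM in control. Their part in the levels of the subunit genes was not tested.

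**Figure D1:**
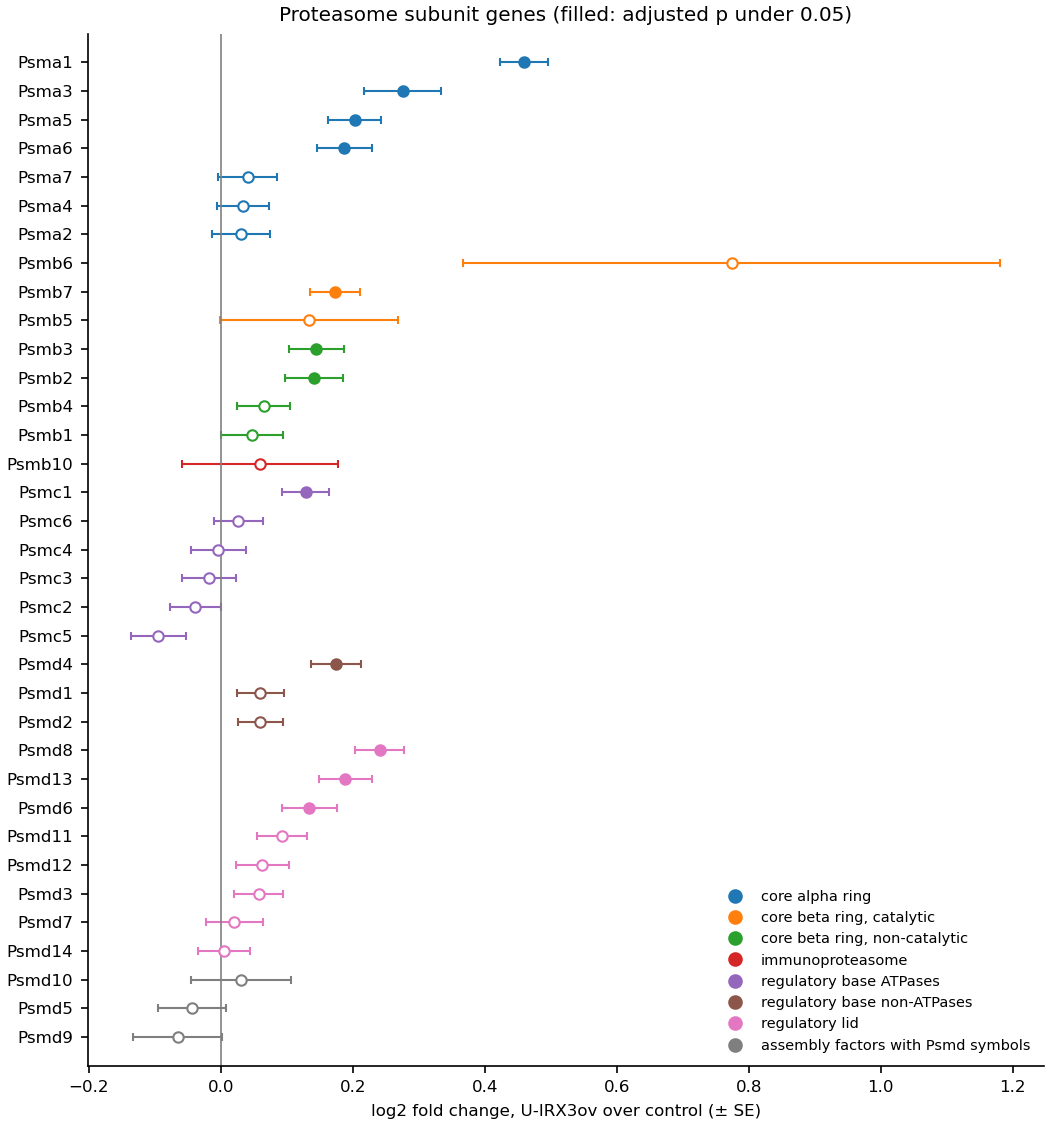
Log2 fold change (x axis, U-IRX3ov over control, ± SE) of the 35 proteasome subunit genes (y axis), coloured by their place in the complex. Filled points passed the edgeR test at an adjusted p under 0.05: 12 do, all right of 0, with Psma1 at 0.46 the highest of them, while Psmb6 at 0.77 has the widest error and did not pass.

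The alpha ring, whose subunits gate the entrance to the barrel, held the largest called change. Psma1 lies on chromosome 7 at 114264606 to 114276118 of mm10 (minus strand) and no annotated exon of another gene overlaps its exons. It had 354, 340.5 and 355 CPM in the U-IRX3ov libraries, against 251, 251 and 261 CPM in the control libraries. The groups were far apart relative to their spread, with means of 349.9 ± 8.24 CPM in U-IRX3ov and 255 ± 5.47 CPM in control (SD, n = 3 each), a 1.37-fold rise (log2 0.46 ± 0.04 SE, adjusted p = 2.62e-11). Psma2 had the lowest fold change of the ring, at 124, 115 and 117 CPM in U-IRX3ov and 115, 110.4 and 123 CPM in control. Its groups overlapped, and its log2 fold change of 0.03 ± 0.04 did not pass (adjusted p = 0.613). Psma3 (0.28 ± 0.06), Psma5 (0.20 ± 0.04) and Psma6 (0.19 ± 0.04) rose too, so 4 of 7 alpha subunits rose. Psma4 (0.03 ± 0.04) and Psma7 (0.04 ± 0.04) did not pass. Of the exonic 50-base words of Psma5, 49.96% also occur in transcripts of other genes, and of Psma3 15.4%, so their counts depend on how reads with several matches were treated, which the sources used here do not say. More than 10% of the words were also shared in Psma4, Psmb3, Psmb5, Psmc1, Psmd2 and Psmd9, so 8 of 35 members carry this uncertainty.

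**Figure D2:**
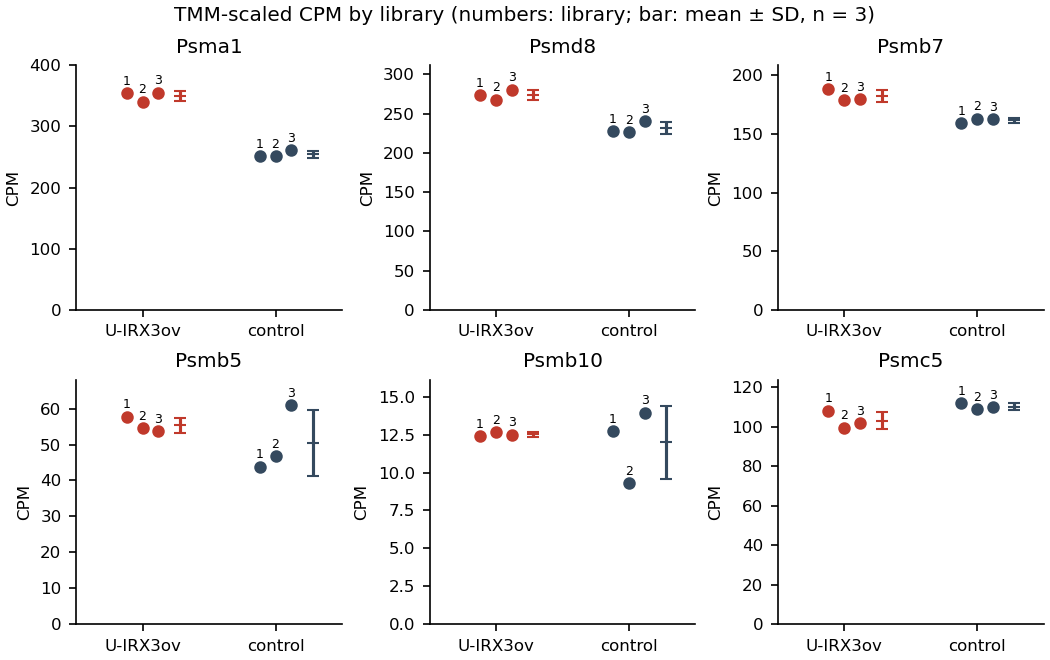
CPM (y axis, TMM-scaled, from 0) of 6 subunit genes in each U-IRX3ov and control library, with library numbers and the mean ± SD (n = 3) beside the points. Psma1, Psmd8 and Psmb7 have every U-IRX3ov library above every control library, Psmc5 has every U-IRX3ov library below, and in Psmb5 and Psmb10 the spread between control libraries covers the difference.

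Of the beta subunits without an active site, Psmb3 (log2 0.14 ± 0.04, adjusted p = 0.00656) and Psmb2 (0.14 ± 0.04, adjusted p = 0.0108) rose. Psmb3, the highest of these 4, had 129.5, 122 and 124 CPM in the U-IRX3ov libraries, against 111, 109 and 119 CPM in the control libraries. The groups were close but did not overlap. Psmb1, the lowest, had 134, 127 and 123 CPM in U-IRX3ov, against 119, 119 and 133 CPM in control, and did not pass (0.05 ± 0.05). Psmb4 did not pass either (0.07 ± 0.04, adjusted p = 0.202). The Psmb2 call was lost without U-IRX3ov library 1 (adjusted p = 0.0754) and without control library 2 (adjusted p = 0.0696).

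Among the catalytic subunits, Psmb7, which carries the trypsin-like activity, rose. It had 188, 179 and 179 CPM in U-IRX3ov, against 159, 163 and 163 CPM in control (1.13-fold, log2 0.17 ± 0.04, adjusted p = 4.54e-04), without overlap. Nek6 overlaps 11.8% of its exonic bases from the opposite strand, and the sources used here do not say whether counting used strand. Psmb5, which carries the chymotrypsin-like activity and is the target of clinical proteasome inhibitors, had 57.8, 54.5 and 53.7 CPM in the U-IRX3ov libraries, against 43.8, 46.7 and 60.9 CPM in the control libraries. Control library 3 was the highest of all 6, so the groups overlapped, and the log2 fold change of 0.13 ± 0.13 did not pass (adjusted p = 0.494, 95% interval -0.21 to 0.47). Without control library 3 it was 0.29 and passed (adjusted p = 2.78e-04). Of its exonic 50-base words, 54.1% also occur in transcripts of other genes, and the microRNA gene Mir686 overlaps 12.1% of its exonic bases on the same strand.

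Psmb6, which carries the caspase-like activity and is part of every constitutive proteasome, spans 70525367 to 70527858 of chromosome 11 on the plus strand. It was listed with only 24, 11 and 14 counts in the U-IRX3ov libraries, against 13, 12 and 10 in the control libraries. Per kilobase of exon (CPM per kb, so that genes of different length can be set side by side) its level was 0.394 ± 0.096 in U-IRX3ov and 0.232 ± 0.030 in control (SD, n = 3 each), while the other 13 core genes ran from 16.9 to 166 in U-IRX3ov and from 13.9 to 145 in control. Its log2 fold change of 0.77 ± 0.41 did not pass (adjusted p = 0.133, 95% interval -0.06 to 1.61). The whole neighbourhood was low: of the 20 nearest protein-coding genes, 10 on each side, 0 reached 10 CPM (here by the library total, without TMM) and the highest, Med11, had a mean of 3.02. The same count ran from 5 to 16 of 20, with a median of 11, around the other 34 members, and 41.5% of all 20638 protein-coding genes in the table reached 10 CPM. Neighbours that most cells use were among the low ones: profilin Pfn1 had 40 to 67 counts a library and the mitochondrial carrier Slc25a11 13 to 23 (both named after their values were seen). Farther out, the kinesin Kif1c had 1896 to 2534. The level of Psmb6 in the cells is therefore not read from these values, and the cause of the low stretch was not tested.

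The immunoproteasome could be read for 1 of its 3 subunits. Psmb8, which replaces Psmb5, was listed with 0, 0 and 1 counts in the U-IRX3ov libraries and with 1, 0 and 0 in the control libraries. Psmb9, which replaces Psmb6, had 6, 0 and 4 counts in U-IRX3ov, against 0, 1 and 4 in control. Both lie in the MHC region, on chromosome 17 at 34197721 to 34201454 (Psmb8) and 34181987 to 34187764 (Psmb9) of mm10, and around each of them 0 of the 20 nearest protein-coding genes reached 10 CPM. Genes of that region that every cell uses were also near or at 0: Brd2 had 5 to 8 counts a library, and Bag6 and the casein kinase subunit Csnk2b were listed at 0 in all 6 (named after their values were seen). The counts of Psmb8 and Psmb9 are therefore not read as the absence of these subunits, and no comparison is drawn from them.

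**Figure D3:**
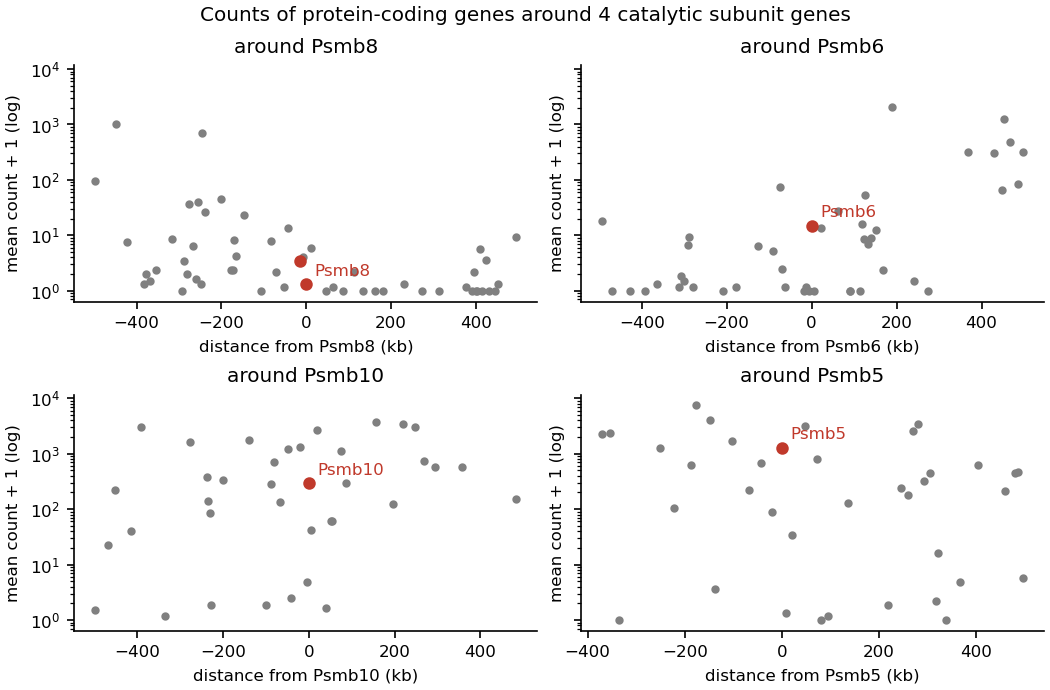
Mean count over the 6 libraries plus 1 (y axis, log scale) of protein-coding genes within 500 kb of Psmb8, Psmb6, Psmb10 and Psmb5 (x axis, distance in kb), with the catalytic subunit genes in red (the unlabelled red point beside Psmb8 is Psmb9). Within 150 kb no neighbour of Psmb8 has a mean count above 22.2 and none of Psmb6 one above 73.8, whereas the highest reach 2700.0 around Psmb10 and 4134 around Psmb5. Farther out, genes with high counts appear in all 4 windows, such as Rps18 for Psmb8 and Kif1c for Psmb6.

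Psmb10, which replaces Psmb7 and lies on chromosome 8 at 105935735 to 105938444 of mm10 (minus strand), had 11 of 20 neighbours at 10 CPM or more and can be read. It had 12.4, 12.7 and 12.5 CPM in the U-IRX3ov libraries, against 12.7, 9.28 and 14.0 CPM in the control libraries. The U-IRX3ov values lay inside the spread of the controls (12.5 ± 0.148 CPM in U-IRX3ov and 11.99 ± 2.42 CPM in control, SD, n = 3 each). The log2 fold change of 0.06 ± 0.12 did not pass (adjusted p = 0.719), with a 95% interval of -0.19 to 0.31, and its sign changed without control library 2 (-0.09). Per kilobase of exon, Psmb10 made up 11.7%, 12.5% and 12.3% of the sum of Psmb10 and Psmb7 in the U-IRX3ov libraries, against 13.9%, 10.3% and 14.7% in the control libraries, again with overlap. In the same libraries 14 of 15 tested leukocyte markers fell, and 0 rose, with a summed level over the list of 168 to 246 CPM in U-IRX3ov and 514 to 629 CPM in control. Ptprc, the pan-leukocyte marker, averaged 3.15 ± 0.461 CPM in U-IRX3ov and 7.94 ± 0.464 CPM in control (SD, n = 3 each), while of the lymphocyte markers Ms4a1 and Nkg7 were listed at 0 in all 6 libraries, Cd3e with at most 1 count and Cd79a with at most 3. The neighbourhoods of these genes were not examined. Their part in the level of Psmb10 was not tested, and in bulk RNA fewer cells of a type and less RNA per cell cannot be told apart.

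The ATPases of the regulatory base, which pull substrates into the barrel, had the lowest median log2 fold change of the subunit groups, -0.01. Psmc1 had 215, 209.7 and 214 CPM in the U-IRX3ov libraries, against 198, 194 and 192 CPM in the control libraries. It was the ATPase that rose (1.09-fold, log2 0.13 ± 0.04, adjusted p = 0.00485). Psmc5 had 108, 99.5 and 102 CPM in U-IRX3ov, against 112, 109 and 109.7 CPM in control. It was the 1 member with every U-IRX3ov library below every control library, but its log2 fold change of -0.09 ± 0.04 did not pass (adjusted p = 0.0699). It passed under upper-quartile scaling (adjusted p = 0.0340) and without U-IRX3ov library 1 (-0.13, adjusted p = 0.0271). Psmc2 (-0.04 ± 0.04), Psmc3 (-0.02 ± 0.04), Psmc4 (-0.00360 ± 0.0413) and Psmc6 (0.03 ± 0.04) did not pass. The 6 ATPases together summed to 899, 883 and 889 CPM in U-IRX3ov, against 873, 879 and 893 CPM in control, with overlap.

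Of the other base subunits, the ubiquitin receptor Psmd4 rose. It had 216, 229 and 222 CPM in the U-IRX3ov libraries, against 192, 199 and 200.4 CPM in the control libraries (1.13-fold, log2 0.17 ± 0.04, adjusted p = 4.09e-04), without overlap. The scaffold subunits Psmd1 and Psmd2 did not pass (0.06 ± 0.04, adjusted p = 0.194 for Psmd1, and 0.06 ± 0.03, adjusted p = 0.172 for Psmd2). Psmd2, the lowest, had 315, 320.2 and 317 CPM in U-IRX3ov, against 301, 302 and 309 CPM in control. Its groups did not overlap.

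In the lid, 3 of 8 subunits rose (37.5%, against 20.2% of all genes tested). Psmd8, whose incorporation completes the lid, had 273, 268 and 281 CPM in the U-IRX3ov libraries, against 228, 226 and 241 CPM in the control libraries. The groups did not overlap, and the 1.18-fold rise (log2 0.24 ± 0.04, adjusted p = 5.81e-06) was the highest of the regulatory particle. Psmd13 (0.19 ± 0.04, adjusted p = 4.03e-04) and Psmd6 (0.13 ± 0.04, adjusted p = 0.00980) rose as well. The Psmd6 call was lost without U-IRX3ov library 2 (adjusted p = 0.0828). Sirt3 overlaps 10.1% of the exonic bases of Psmd13 from the opposite strand. Psmd14, the metalloprotease that cuts ubiquitin chains from the substrate, had the lowest fold change of the lid, with 143, 133 and 141 CPM in U-IRX3ov and 137, 140.1 and 139 CPM in control (0.00487 ± 0.0396, adjusted p = 0.934). Psmd7, its partner in that enzyme, had 0.02 ± 0.04 (adjusted p = 0.734). Psmd11, which was higher in every U-IRX3ov library than in any control library, missed the threshold (0.09 ± 0.04, adjusted p = 0.0509). It passed with DESeq2 size factors in edgeR (0.0408), with the replicate number as a block (0.0490) and without control library 3 (0.0132). Psmd3 (0.06 ± 0.04) and Psmd12 (0.06 ± 0.04) did not pass.

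The 3 Psmd genes that encode assembly factors of the base, and not subunits of the finished particle, did not pass. Psmd10 (gankyrin) had 19.5, 18.8 and 19.8 CPM in the U-IRX3ov libraries, against 18.8, 18.5 and 19.6 CPM in the control libraries (0.03 ± 0.08, adjusted p = 0.776). Psmd9 had 30.0, 27.8 and 26.2 CPM in U-IRX3ov, against 29.1, 28.2 and 30.7 CPM in control (-0.06 ± 0.07, adjusted p = 0.475). Both overlapped between the groups, and Psmd5 had -0.04 ± 0.05 (adjusted p = 0.537). The lincRNA Gm26745 overlaps 25.5% of the exonic bases of Psmd9 from the opposite strand.

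Subunits that sit in the complex in equal numbers were not listed at equal transcript levels. Per kilobase of exon, the 17 genes of the regulatory particle ran from 27.1 (Psmd11) to 110.2 CPM per kb (Psmc1) in U-IRX3ov and from 25.4 to 101 CPM per kb in control, with medians of 49.8 in U-IRX3ov and 50.4 in control. The 13 core genes other than Psmb6 had medians of 61.5 CPM per kb in U-IRX3ov and 56.1 CPM per kb in control, led by Psma6 at 166 in U-IRX3ov and 145 in control. The 3 assembly factors were lower, at 3.86 to 13.2 CPM per kb in U-IRX3ov and 4.05 to 12.9 in control. Psmb10 stood among them at 7.34 ± 0.0869 CPM per kb in U-IRX3ov and 7.03 ± 1.42 in control (SD, n = 3 each). Lengths are the union of all annotated exons, which overstates the length of genes with long minor isoforms and so lowers their level.

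**Figure D4:**
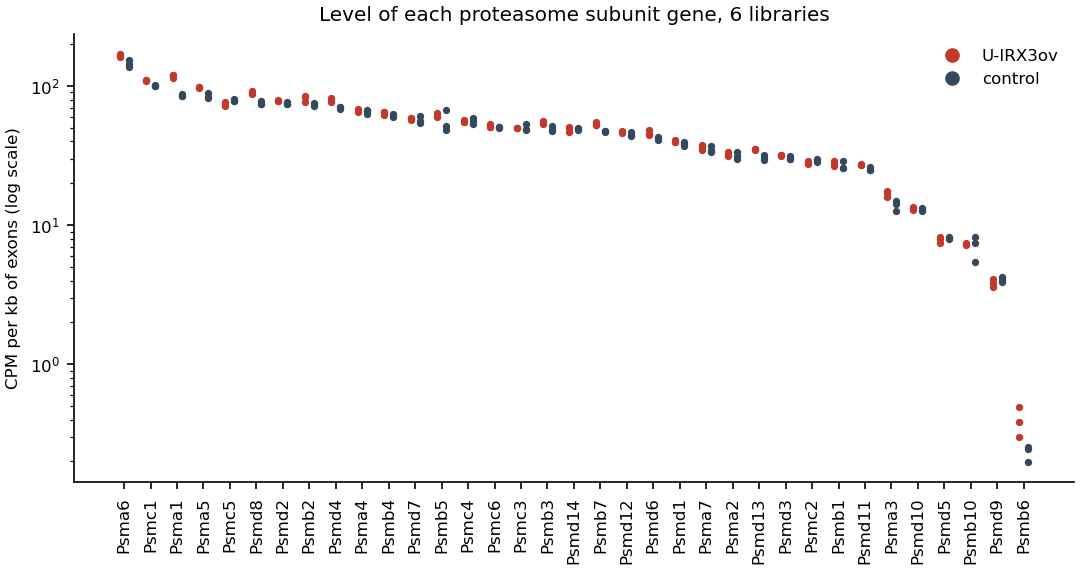
Level of the 35 subunit genes per kilobase of exon (y axis, CPM per kb, log scale), ordered by the control mean, with 1 point per U-IRX3ov and control library. Psma6 is highest, the 3 assembly factors and Psmb10 lie near 4 to 13, and Psmb6 lies far below all others, at 0.394 in U-IRX3ov and 0.232 in control.

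Genes of the alternative activators, which cap the core in place of the regulatory particle, rose. Psme1 and Psme2, which form the activator that interferon gamma induces, had the larger changes: Psme1 had 67.3, 68.1 and 69.4 CPM in the U-IRX3ov libraries, against 56.1, 52.3 and 60.4 CPM in the control libraries (1.21-fold, log2 0.28 ± 0.05, adjusted p = 9.77e-05). Psme2 had 67.4, 69.4 and 63.4 CPM in U-IRX3ov, against 51.1, 51.1 and 52.3 CPM in control (log2 0.37 ± 0.05, adjusted p = 8.09e-07). Neither gene overlapped between the groups. The nuclear activator gene Psme3 (0.14 ± 0.04) and Psme4 (0.13 ± 0.04) rose too, so 4 of 5 genes of this list rose, while Psmf1, an inhibitor of the core in vitro, did not pass (-0.10 ± 0.07). The Psme4 call was lost without control library 3 (adjusted p = 0.0737). Of the core assembly factors none of the 4 tested passed in edgeR, in DESeq2 or at an unadjusted p under 0.05. Pomp, which helps the beta ring mature, had 94.4, 87.8 and 95.1 CPM in U-IRX3ov, against 94.4, 90.3 and 107 CPM in control (-0.07 ± 0.06). Psmg1 had 0 to 3 counts a library and was not tested, and 3 of its 20 nearest protein-coding genes reached 10 CPM.

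Nfe2l1, the transcription factor that induces proteasome genes when the proteasome falls short, had 702, 723 and 694 CPM in the U-IRX3ov libraries, against 629, 633 and 649.5 CPM in the control libraries. The groups did not overlap, and the 1.11-fold rise passed (log2 0.15 ± 0.03, adjusted p = 7.14e-04). Its relative Nfe2l2 did not pass (-0.000385 ± 0.0364 on the log2 scale, adjusted p = 0.994). Akirin2, needed to bring proteasomes into the nucleus, rose (0.19 ± 0.05, adjusted p = 0.00496), as did the NF-Y subunit Nfyc (0.16 ± 0.06, adjusted p = 0.0342), a call that DESeq2 and upper-quartile scaling did not make (0.0746 and 0.0565) and that was lost without U-IRX3ov library 1, U-IRX3ov library 3 or control library 1 (0.157, 0.0794 and 0.109). In all, 3 of 9 genes of this list of regulators of proteasome gene transcription, in which Akirin2 was counted, rose. Of all genes tested, 20.2% rose. Medians of these lists stood beside -0.00473 over all genes tested: 0.14 for the activators and inhibitor, -0.03 for core assembly and 0.13 for the regulators.

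Among factors bound to the regulatory particle or part of it under other symbols, 4 of 9 rose and 1 fell. Of all genes tested, 20.2% rose and 21.1% fell. Zfand5 (0.27 ± 0.04), the proteasome-bound scaffold AI314180 (Ecm29; 0.24 ± 0.04) and the ubiquitin ligase Ube3c (0.22 ± 0.04) had the smallest p-values of this list, with adjusted p of 7.31e-06, 1.62e-05 and 4.29e-05. The count of rises was 3 to 4 in each fit without 1 library. Of ubiquitin genes, E1 enzymes and shuttle factors, 4 of 14 rose and 2 fell, to be read beside the same shares. DESeq2 called 0 falls in either list. The shuttle factor Ubqln4 (0.19 ± 0.04) and the polyubiquitin gene Ubb (0.12 ± 0.04) were among those that rose.

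Genes of antigen presentation, which uses the peptides of the immunoproteasome, mostly fell. Of the list of MHC class I presentation, 6 of 9 tested genes fell and 1 rose, where 21.1% of all genes tested fell and 20.2% rose. The smallest p-values were those of the chaperones Calr (-0.59 ± 0.04), Pdia3 (-0.55 ± 0.03) and Canx (-0.18 ± 0.03), which also serve general folding in the endoplasmic reticulum. Without U-IRX3ov library 1 or 2 the falls numbered 4. Tap1, Tap2, Tapbp, H2-K1 and H2-D1 of this list lie in the MHC region and had at most 1.95 CPM on average in either group, with at most 2 of their 20 nearest protein-coding genes at 10 CPM, so they are not read here. Tapbp and H2-K1 are among the 9 tested, and without them, a choice made after their values were seen, the other 7 had a median log2 fold change of -0.42. Of 26 tested interferon-stimulated genes, 3 fell and 1 rose, where 21.1% of all genes tested fell and 20.2% rose. The smallest p-values were those of Irf8 (-1.03 ± 0.23), Cxcl10 (0.88 ± 0.22, the gene that rose) and Ifit2 (-0.38 ± 0.11). U-IRX3ov library 3 stood apart in this list. The list summed to 347 to 566 CPM in U-IRX3ov and 380.2 to 500.1 CPM in control. Without U-IRX3ov library 3 there were 17 that fell and 2 that rose, with the replicate number as a block 9 that fell and 2 that rose, and with no filter on low counts 5 that fell and 2 that rose. For the 12 subunit genes that rose, all 12 calls held without that library.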

How the data were processed

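RNA of 6 libraries was sequenced, 3 from U-IRX3ov and 3 from control cells, and the genotype in the labels set the groups. The authors deposited raw counts of reads for each gene symbol in a single table. HISAT2 2.0.4 and mm10 are named in the submitters' processing notes. The sources used here do not give the counting program, its annotation, its use of strand or its treatment of reads with several matches.

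Low counts were removed with filterByExpr, libraries were scaled by TMM, and groups were compared with edgeR 4.0.16 in R 4.3.3 (quasi-likelihood F test, robust, no covariates). Adjusted p-values are Benjamini-Hochberg over 14757 genes. An SE is the size of the log2 fold change over the square root of F. The biological coefficient of variation was 5.12%. The steps were tested on simulated counts. With 3 libraries in each group the smallest exact permutation p is 0.1, so tests rest on the model. Within groups, pairs of libraries had a chi-square of 3.02 to 5.20 for each degree of freedom, above counting noise. Positions, overlaps, exon lengths and 50-base words are from GENCODE on GRCm38, promoters from RefSeq on GRCm38.p6.

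Members and lists were chosen with earlier results of these data known. Values in each library are given for Psmb5 to Psmb10, the highest and lowest member of every other class, Nfe2l1, Psme1, Psme2, Pomp and Irx3. Fold changes are given for other members, Nfe2l2, the other activators and up to 3 genes of each list with the smallest p. A gene that this rule names is not reported here. Alternatives were DESeq2 1.42.0, DESeq2 size factors and upper-quartile scaling in edgeR, no filter on low counts, the replicate number as a block and leaving out each library.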

Additional observations from a re-analysis of the deposited data

How the results depend on the processing

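The count of 12 higher members ran from 11 to 14 when each library was left out, and that of lower members from 0 to 1. Under upper-quartile scaling 1 member, Psmc5, was lower. No alternative scaled by library totals alone, so how the calls depend on using TMM or a similar scaling was not tested. The TMM factors ran from 0.958 to 0.973 in U-IRX3ov and from 1.031 to 1.038 in control, beside a smallest called fold of 1.09. Over 385 pairs of member and alternative, 376 kept their side of the threshold, 3 lost a call, 6 gained one and 0 changed sign with a call. A change of sign without a call in either fit, as for Psmb10 without control library 2, was counted among the 376. Without 1 library, the median log2 fold change ran from 0.12 to 0.18 for the core, from 0.04 to 0.08 for the regulatory particle and from -0.09 to 0.18 for Psmb10. The counts over all genes ran from 2610 to 2788 higher and from 2788 to 2913 lower. Leaving out Psmb6, chosen after seeing the data, left 12 higher members and a core median of 0.14. The interferon-stimulated gene Ifi44 ran from -1.01 without U-IRX3ov library 3, with a call, to 0.50 without U-IRX3ov library 1, without one, and the cause was not tested. The titles number libraries 1 to 3 in both groups without saying that a number is shared, and deviations of same-numbered libraries correlated at 0.02 to 0.07. Each library correlated best with its own number, a hint from the data and not the design. With the replicate block 13 members were higher, the 12 and Psmd11. The interferon-stimulated genes had 9 falls under the block, against 3 without it. The wide interval of Psmb6, -0.06 to 1.61, rests on 10 to 24 counts a library.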
